A study of Mus musculus with 4 samples.

Results

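The endothelial genes and caveolins were 10 genes of the 23552 in the expression table: Cav1, Cav2, Pecam1, Cdh5, Kdr, Tek, Esam, Emcn, Eng and Cd34. They were chosen by symbol, with their difference between the groups already known, so that difference is described here and not tested. RNA-seq was performed on c-Kit+ leukemic cells enriched from the bone marrow of moribund C57BL/6 mice with acute myeloid leukemia (AML) induced by MLL-AF9, a fusion of the MLL and AF9 genes. The 2 control libraries (replicates 3 and 4) came from leukemia carrying an eGFP overexpression vector, and the 2 SUV-OE libraries (replicates 2 and 3) from leukemia with Suv39h1-eGFP overexpression. Suv39h1 encodes a methyltransferase for lysine 9 of histone H3. The vectors were delivered by lentivirus to serially transplanted leukemia cells, and sorted eGFP+ cells were given to sublethally irradiated recipients (8-week-old females by the methods), which keep marrow cells of their own. Enrichment for c-Kit, a receptor also carried by normal progenitors, does not separate leukemic from host cells. The labels do not say whether each library came from a separate mouse, so p-values measure only the spread between these libraries, which may be technical.

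Endothelial cells line blood vessels, and in the marrow they form the sinusoids and arterioles beside which blood progenitors live. They are held together by junction proteins and respond to vascular endothelial growth factor (VEGF) and angiopoietins through receptor tyrosine kinases. Caveolins are the membrane proteins of caveolae, small flask-shaped pits that are abundant in endothelium. Several of the 10 genes are also used by blood cells: Pecam1 by myeloid cells and platelets, and Cd34, Eng, Tek and Esam by hematopoietic stem and progenitor cells.

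Suv39h1 was at 12.4 FPKM in both control libraries and at 75.3 and 81.2 FPKM in the SUV-OE libraries, so the targeted gene matched the labels (FPKM, fragments per kilobase of exon, scaled by a total for the library). Its log2 fold change was 2.56 (limma, adjusted p = 0.00866). Kit was at 20.4 and 19.2 FPKM in controls and at 28.6 and 25.4 FPKM in SUV-OE. The FPKM stood for 20085762 to 23561149 reads in a library, as worked out from the size of the FPKM steps. The totals by which the authors scaled the FPKM, worked out from the same steps, were 16873770 to 19453058, so 3 reads on 1 kb of exons equalled 0.154 to 0.178 FPKM. In each library this total was smaller than the recovered reads, for a reason that was not tested. The filter, a mean FPKM of 0.5 or more over the 4 libraries, left 13736 genes, of which 112 were called higher in SUV-OE and 56 lower (limma on log2(FPKM + 1), adjusted p under 0.05 and a change of at least 1 on the log2 scale).

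Cav2 and Cav1 are neighbours on chromosome 6, and Met, the hepatocyte growth factor receptor gene, is the next protein-coding gene after Cav1. Their RefSeq promoters on GRCm38.p6 are shown because the values of this locus are compared later. Each is 300 bases long, runs 5′ to 3′ on the plus strand and spans the start of the gene. Capitals mark GGAAG or its reverse complement CTTCC, letters found in sites of ETS factors, a family that includes the endothelial and blood regulators Erg and Fli1. The promoters lie at chr6:17280935-17281234 for Cav2, chr6:17306085-17306384 for Cav1 and chr6:17463707-17464006 for Met.
Cav2: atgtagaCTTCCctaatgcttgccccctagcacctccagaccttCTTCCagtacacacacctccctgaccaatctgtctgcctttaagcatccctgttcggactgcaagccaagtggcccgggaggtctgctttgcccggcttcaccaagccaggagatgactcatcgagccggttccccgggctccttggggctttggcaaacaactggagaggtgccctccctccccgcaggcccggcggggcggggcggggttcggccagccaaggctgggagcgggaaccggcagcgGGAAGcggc
Cav1: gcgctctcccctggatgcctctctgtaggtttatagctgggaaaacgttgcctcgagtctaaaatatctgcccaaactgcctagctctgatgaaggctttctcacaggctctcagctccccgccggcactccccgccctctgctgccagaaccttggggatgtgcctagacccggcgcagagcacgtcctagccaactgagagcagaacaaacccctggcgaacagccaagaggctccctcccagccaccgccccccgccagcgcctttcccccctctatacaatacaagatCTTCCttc
Met: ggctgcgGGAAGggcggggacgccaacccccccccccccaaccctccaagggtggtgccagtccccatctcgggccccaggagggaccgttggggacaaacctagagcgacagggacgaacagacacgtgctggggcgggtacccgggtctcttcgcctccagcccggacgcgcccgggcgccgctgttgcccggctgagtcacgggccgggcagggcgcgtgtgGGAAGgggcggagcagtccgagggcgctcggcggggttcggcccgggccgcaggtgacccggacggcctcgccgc
These entries held 3 motifs for Cav2, 1 for Cav1 and 2 for Met, with no overlap between them. A second Cav1 entry, at chr6:17307390-17307689, held 0 and had 16 CpG dinucleotides. Promoter entries were found for 7 of the 10 genes, 8 entries in all, and 6 of the 8 held the motif on either strand. It was present in 71.4% of 32851 mouse promoters of the same length. AGATAA, the letters of GATA factor sites, was present on either strand in 1 of the 8, that of Tek, and in 11.2% of all promoters. The promoters shown for Cav2, Cav1 and Met held 16, 13 and 34 CpG dinucleotides, and the median of all promoters was 7.

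For 7 of the 10 genes the lower SUV-OE value exceeded the higher control value, for none was it the reverse, and for 3 the groups overlapped. Over the whole table, 25.7% of genes had SUV-OE wholly above control and 21.9% wholly below. Because the genes were chosen on this contrast, nothing is read from that difference. In bulk RNA, more cells of a type and more RNA per cell cannot be told apart. Only 4 of the 10, Pecam1, Cd34, Cav2 and Eng, passed the filter of 0.5 FPKM. Of these, 1 met the thresholds for a higher level, Pecam1, where 0.815% of all tested genes did. By limma-voom on the recovered reads 9 were tested and 2 met them, Pecam1 and Cav2, against 3.67% of all genes tested that way.

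**Figure D1:**
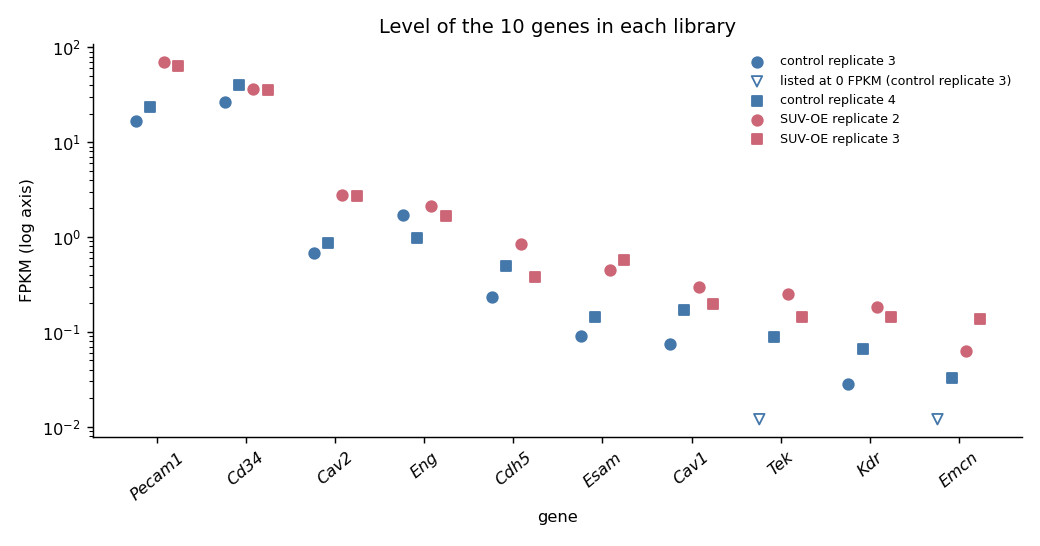
FPKM (log scale) of the 10 genes in the 2 control and 2 SUV-OE libraries, 1 point per library, with values of 0 drawn as open triangles at the bottom of the axis. Pecam1 and Cd34 lie far above the rest, and the groups overlap for Eng, Cdh5 and Cd34.

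Cav2 (ENSMUSG00000000058, chr6:17281185-17289115, plus strand) encodes caveolin-2, which needs caveolin-1 to reach caveolae. It was at 0.678 and 0.871 FPKM in control replicates 3 and 4 and at 2.79 and 2.68 FPKM in SUV-OE replicates 2 and 3, the order kept for all values here. Both SUV-OE libraries were thus well above both controls and close to each other. The log2 fold change was 1.08 (SE 0.15), which did not meet the thresholds by limma. These levels rested on 44, 49, 165 and 159 reads, a read rate 3.56 times that of controls (exact 95% interval 2.82 to 4.54). Such intervals cover counting error only.

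Cav1 (ENSMUSG00000007655, chr6:17306335-17341452, plus strand) encodes caveolin-1, the main structural protein of caveolae. It was much lower, at 0.0746 and 0.172 FPKM in controls and 0.295 and 0.196 FPKM in SUV-OE, from 5, 10, 18 and 12 reads. The groups did not overlap, but control replicate 4 and SUV-OE replicate 3 differed by only 2 reads. The read rate in SUV-OE was 2.05 times that in controls (1.07 to 4.09), 1.42 times (0.678 to 3.27) without control replicate 3, and 3.29 times (1.26 to 10.8) without control replicate 4. Cav2 exceeded Cav1 in every library, 9.09- and 5.06-fold in controls and 9.47- and 13.7-fold in SUV-OE on the FPKM scale.

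Among the receptors, Kdr (ENSMUSG00000062960, chr5:75932827-75978458, minus strand) encodes the main signalling receptor for VEGF. It was at 0.0285 and 0.0656 FPKM in controls and at 0.181 and 0.143 FPKM in SUV-OE, from 5, 10, 29 and 23 reads. Both SUV-OE libraries were higher, with a read rate 3.55 times that of controls (1.97 to 6.78), 2.47 times (1.24 to 5.45) without control replicate 3, and 5.70 times (2.29 to 18.3) without control replicate 4. Tek (ENSMUSG00000006386, chr4:94739289-94874976, plus strand) encodes Tie2, the angiopoietin receptor. It had 0 reads in control replicate 3, then 7, 21 and 12 reads, or 0, 0.0880, 0.251 and 0.143 FPKM. Its read rate ratio was 4.82 (2.10 to 12.9), and 2.24 (0.974 to 6.00) without control replicate 3. Without control replicate 4 no control read remained and no ratio was formed.

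Eng (ENSMUSG00000026814, chr2:32646595-32682669, plus strand) encodes endoglin, a co-receptor for transforming growth factor beta and bone morphogenetic proteins (BMPs). It was at 1.69 and 0.966 FPKM in controls and at 2.10 and 1.68 FPKM in SUV-OE. Control replicate 3 lay level with SUV-OE replicate 3, so the groups overlapped. The log2 fold change was 0.33 (SE 0.21), and 0.10 to 0.55 when each library was left out in turn. Exons of Eng overlap those of Fpgs on the opposite strand, and Fpgs was at 13.5 and 9.21 FPKM in controls and 6.31 and 6.26 FPKM in SUV-OE. Strand was not stated to be used in counting, so reads in the shared exons cannot be assigned to either gene.

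Pecam1 (ENSMUSG00000020717, chr11:106654217-106750628, minus strand) encodes CD31, a homophilic adhesion molecule of endothelial junctions, platelets and leukocytes. It was at 16.7 and 23.3 FPKM in controls and at 70.3 and 64.1 FPKM in SUV-OE. The means were 20.01 ± 4.67 and 67.2 ± 4.36 FPKM (SD, n = 2 each). The SUV-OE libraries were several times higher, by 1.71 on the log2 scale (SE 0.19). The change was 1.49 to 1.94 when each library was left out in turn. With 2025, 2450, 7766 and 7098 reads, the read rate ratio was 3.40 (3.28 to 3.51), so counting error was far smaller than the spread between control libraries.

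Cd34 (ENSMUSG00000016494, chr1:194938819-194961279, plus strand) encodes a sialomucin of progenitors and small-vessel endothelium. It was at 26.5 and 39.8 FPKM in controls and at 36.6 and 35.8 FPKM in SUV-OE. Both SUV-OE libraries lay between the controls. The log2 fold change was 0.15 (SE 0.21), and -0.13 without control replicate 3. Its exons overlap those of Gm16897 on the opposite strand.

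Cdh5 (ENSMUSG00000031871, chr8:104101625-104144511, plus strand) encodes VE-cadherin, the adherens junction protein that defines endothelium. It was at 0.232 and 0.491 FPKM in controls and at 0.848 and 0.381 FPKM in SUV-OE, and the groups overlapped. Its mean of 0.488 FPKM fell just short of the filter. Its values did not correspond to whole reads at the annotated exon length. With rounded reads the ratio was 1.72 (1.22 to 2.46), 1.06 (0.646 to 1.70) without SUV-OE replicate 2, and 2.62 (1.59 to 4.56) without control replicate 4.

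Esam (ENSMUSG00000001946, chr9:37528078-37538319, plus strand) encodes an adhesion molecule of endothelial tight junctions. It was at 0.0897 and 0.145 FPKM in controls and at 0.452 and 0.569 FPKM in SUV-OE, from 5, 7, 23 and 29 reads. Both SUV-OE libraries were higher, with a read rate ratio of 4.43 (2.33 to 9.12). Emcn (ENSMUSG00000054690, chr3:137341067-137432185, plus strand) encodes endomucin, a sialomucin of veins and capillaries. It had 0, 3, 6 and 13 reads, or 0, 0.0329, 0.0625 and 0.135 FPKM. The ratio was 6.48 (1.91 to 34.2), 3.01 (0.886 to 15.9) without control replicate 3, and 4.09 (0.874 to 25.3) without SUV-OE replicate 3. Its 3 control reads all came from replicate 4.

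**Figure D2:**
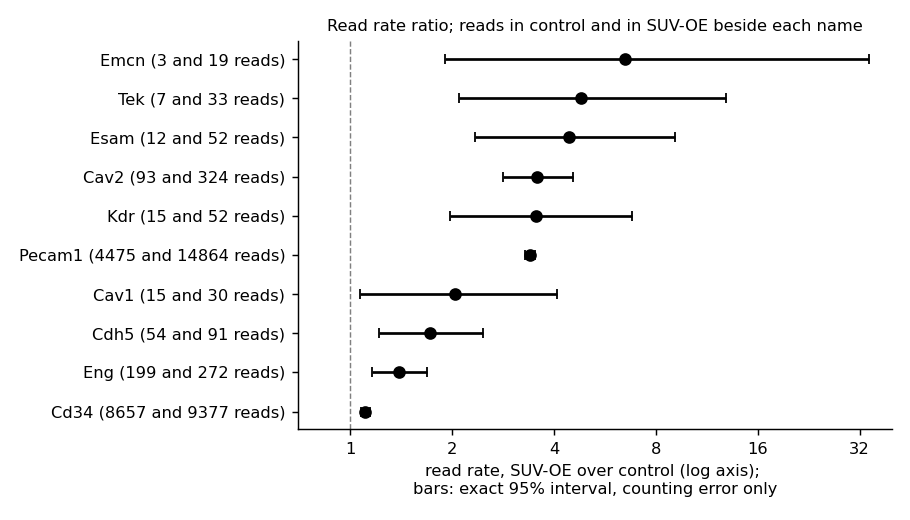
Read rate in the 2 SUV-OE libraries over that in the 2 control libraries for each of the 10 genes (log axis), with exact 95% intervals that cover counting error only. The ratios run from 1.11 for Cd34 to 6.48 for Emcn, and the intervals are widest for the genes with the fewest reads.

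Cav1, Kdr, Tek, Esam and Emcn each had between 15 and 100 reads over the 4 libraries, and all 5 had both SUV-OE libraries above both controls. Of all 4492 genes in that range, 32.1% did so and 16.1% had both below. The 5 genes were chosen on this contrast and the range was set after the values were seen, so nothing is read from that difference. Cdh5, with 54 reads in controls and 91 in SUV-OE, lay above the range, and its groups overlapped. The libraries also differed within each group. Control replicate 4 was above control replicate 3 for 9 of the 10 genes, all but Eng, against 51.3% of all genes. SUV-OE replicate 2 was above replicate 3 for 8 of the 10, all but Esam and Emcn, against 51.2% of all genes.

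In FPKM, the order in controls was Cd34, Pecam1, Eng, Cav2, Cdh5, Cav1, Esam, Kdr, Tek and Emcn. The ranges of Cav1 and Esam overlapped, as did those of Kdr with Tek and of Tek with Emcn. In SUV-OE the order was Pecam1, Cd34, Cav2, Eng, Cdh5, Esam, Cav1, Tek, Kdr and Emcn. There the ranges overlapped between Cdh5 and Esam, Cav1 and Tek, and Tek and Kdr. Pecam1 was at 0.631 and 0.585 times the FPKM of Cd34 in controls and at 1.92 and 1.79 times in SUV-OE. Together both made up 93.9% to 95.7% of the summed FPKM of the 10 genes in each library. The other 8 genes summed to 2.79 and 2.83 FPKM in controls and to 6.98 and 5.93 FPKM in SUV-OE.

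The gap between Cav2 and Cav1 was 17.2 kb and that between Cav1 and Met 122 kb (GENCODE M21). Met was at 0.649 and 0.733 FPKM in controls and at 2.55 and 2.64 FPKM in SUV-OE. Its levels stayed at 0.842 to 0.983 times those of Cav2 in the 4 libraries. The log2 fold change of Met was 1.09 (SE 0.14, limma adjusted p = 0.0550), short of the threshold, while limma-voom on the reads gave an adjusted p of 0.0050. Within 1 Mb of Cav1 the table held 9 protein-coding genes, and 6 were tested. None of the 6 was called by limma on log2(FPKM + 1), and limma-voom called Cav2 and Met. St7 and Tfec had both SUV-OE libraries below both controls, with log2 fold changes of -0.66 (adjusted p = 0.1003) and -0.65 (adjusted p = 0.134). St7 did pass by its adjusted p alone with limma-voom (0.0272). Tes and Capza2 had values of 0.14 and -0.03. Of the untested neighbours, Wnt2 had 0 reads in both controls and 2 in each SUV-OE library, and Cftr had 22, 27, 13 and 14 reads.

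**Figure D3:**
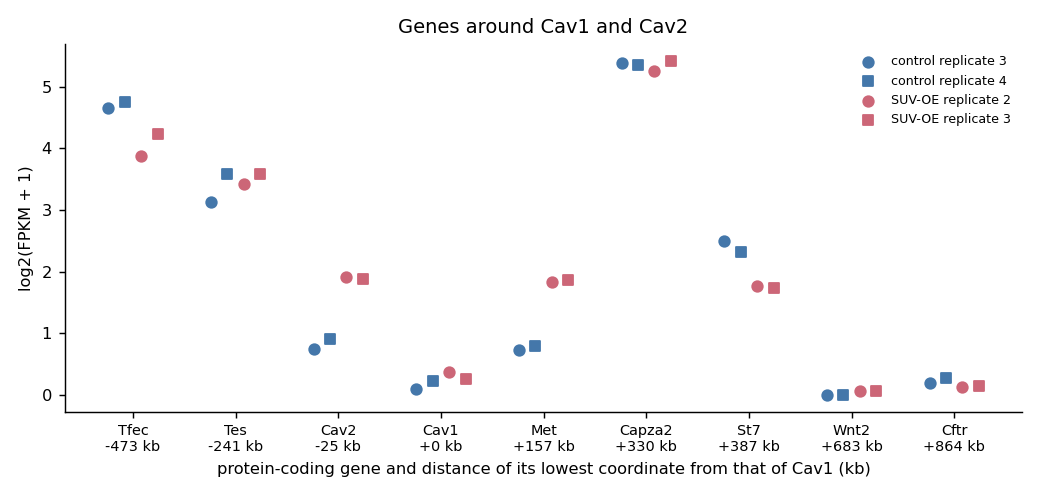
Level (log2(FPKM + 1)) of the 9 protein-coding genes within 1 Mb of Cav1 on chromosome 6 in each of the 4 libraries, ordered by position, with the distance of each gene's lowest coordinate from that of Cav1 in kb. Cav2 and Met lie at like levels and are higher in both SUV-OE libraries, Tfec and St7 are lower, and the groups overlap for Capza2 and Tes.

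The genes that work with the 10 were taken from 8 lists with 103 genes, of which 100 were in the table and 54 were tested. Of the 54, 4 were called higher in SUV-OE and none lower, where 0.815% and 0.408% of all tested genes were. By limma-voom 76 were tested, 11 were called higher and none lower, where 3.67% and 1.11% of all genes tested that way were. Regardless of calls, 42 of the 54 had a positive log2 fold change, as did 6458 of all 13736, and the medians were 0.24 and -0.02. In 29 of the 54 both SUV-OE libraries were above both controls and in 5 both were below, against 25.4% and 28.4% of all tested genes. These counts are a description, since all lists were chosen with earlier results of these data known. In addition, 8 of the 54, Tal1 and Mef2c among them, had a control mean under the filter and were tested only through their SUV-OE values.

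Of the endothelial transcription factors, 2 of 12 tested rose by limma and 8 had a positive change. Sox18, a regulator of vessel and lymphatic identity, was at 0.508 and 0.549 FPKM in controls and at 5.77 and 6.42 FPKM in SUV-OE, a log2 fold change of 2.21 (SE 0.14, limma adjusted p = 0.0146). Tal1, needed for blood and early vessel formation, was at 0.200 and 0.271 FPKM in controls and at 2.54 and 2.24 FPKM in SUV-OE, a change of 1.45 (SE 0.16, adjusted p = 0.0405), with a control mean under the filter. Mef2c, a MADS-box factor, differed by 1.35 without passing by limma (adjusted p = 0.0688), and passed by limma-voom (adjusted p = 0.0050). Klf2, Klf4 and Fli1, named after their values were seen, had log2 fold changes of -2.51, -1.20 and -0.31 (limma adjusted p = 0.311, 0.465 and 0.304). Klf2, a flow-responsive factor, was at 292 and 41.5 FPKM in controls and at 7.66 and 43.2 FPKM in SUV-OE, and its groups overlapped. The most abundant of this list, Lmo2, a partner of Tal1, was at 252 and 254 FPKM in controls and at 299.6 and 307 FPKM in SUV-OE (adjusted p = 0.414).

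Of the list of extracellular matrix proteins and their adhesion receptors, 2 of 9 tested genes rose by limma, and all 9 had a positive change. Itga6, a laminin receptor subunit, was at 3.37 and 3.61 FPKM in controls and at 10.7 and 8.98 FPKM in SUV-OE (log2 fold change 1.26, SE 0.13, limma adjusted p = 0.0404). Itgb3, the beta subunit of the vitronectin and platelet fibrinogen receptors, was at 4.62 and 4.44 FPKM in controls and at 12.0 and 10.2 FPKM in SUV-OE (1.12, SE 0.13, adjusted p = 0.0434). Itga1, a collagen receptor subunit whose exons overlap Gm49395, differed by 1.14 (limma adjusted p = 0.0795), and passed by limma-voom (adjusted p = 0.0094). Itgb1 was most abundant in this list, with a change of 0.02.

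By limma on log2(FPKM + 1), none of the tested genes passed in the other 6 lists, which held 2 caveolar genes, 5 ligands, 2 receptors, 7 BMP and TGF-beta genes, 11 junction and adhesion genes and 6 surface and secreted genes. By limma-voom on the reads Nrp1, Podxl, Selp and Vwf of these lists were called higher, with adjusted p-values of 0.0313, 0.0249, 0.0278 and 0.0161. Angpt1, the ligand of Tek, was at 14.8 and 23.6 FPKM in controls and at 34.002 and 30.6 FPKM in SUV-OE (limma adjusted p = 0.185). It thus stood far above the FPKM of its receptor in each library. Cd93, the junction and adhesion gene with the highest mean over the 4 libraries, was at 30.8 and 29.4 FPKM in controls and at 61.4 and 53.9 FPKM in SUV-OE (adjusted p = 0.0576). Vcam1, a leukocyte adhesion molecule of the same list named after its values were seen, was at 48.2 and 52.2 FPKM in controls and at 31.0 and 33.6 FPKM in SUV-OE (log2 fold change -0.62, limma adjusted p = 0.0952). The other most abundant tested genes of each list were Pacsin2 (log2 fold change -0.26), Nrp1 (0.57), Tgfb1 (0.11) and Thbd (0.44). Among the caveolar coat genes, named after their values were seen, Cavin1 was at 0.358 and 0.264 FPKM in controls and at 0.707 and 0.659 FPKM in SUV-OE. Cavin2 was at 0.303 and 0.194 FPKM in controls and at 0.812 and 0.755 FPKM in SUV-OE (adjusted p = 0.200). Cavin3 overlapped, at 0 and 0.115 FPKM in controls and at 0.0544 and 0.109 FPKM in SUV-OE.

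**Figure D4:**
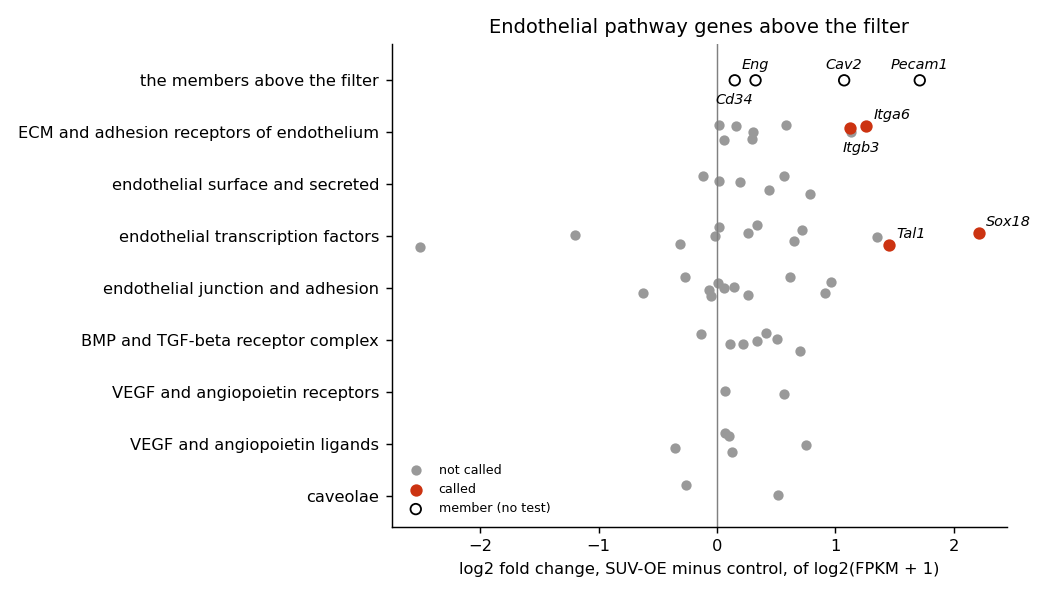
Log2 fold change (SUV-OE minus control, on log2(FPKM + 1)) of the tested genes of each list, 1 point per gene, with called genes in red and the described genes above the filter as open circles. Sox18, Tal1, Itga6 and Itgb3 are the 4 called genes.

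Of 13 other defining markers of endothelium, all also in the lists described before, 10 were below the filter. The other 3 were tested and Sox18 was called. Of the 13, 11 were higher in both SUV-OE libraries than in both controls and 1, Flt1, was lower. They summed to 3.74 and 4.97 FPKM in controls and to 13.9 and 12.1 FPKM in SUV-OE, or to 3.23, 4.42, 8.10 and 5.71 FPKM without Sox18. Ramp2 was at 0 in control replicate 4. The summed reads of control and SUV-OE libraries were 6 and 15 for Cldn5, 113 and 249 for Plvap, 39 and 108 for Tie1, 105 and 136 for Egfl7, and 16 and 54 for Robo4. Flt1, a decoy receptor for VEGF, went the other way with 304 and 119 reads. Mmrn2 overlapped, and Clec14a, Ecscr, Ramp2, Sox17 and Stab2 had both SUV-OE libraries above.

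Lists of markers of other cell types are set beside these values, and 25.7% of all genes in the table were wholly above and 21.9% wholly below. They share genes with the endothelial lists: Gata2 and Procr (stem cell), Vwf (megakaryocyte) and Vcam1 (monocyte). Of 9 hematopoietic stem cell markers, 8 were above in both SUV-OE libraries, Ctnnal1 was below and Hlf was called higher by limma, with sums of 14.3 and 12.2 FPKM in controls and 27.0 and 22.5 FPKM in SUV-OE, and Gata2 was the most abundant. Of 12 megakaryocyte and platelet markers, 8 were above, with sums of 8.71 and 16.1 against 28.6 and 32.8 FPKM, led by Itga2b. Of 10 B lymphoid markers, 9 were above, with sums of 21.2 and 29.5 against 42.9 and 100.1 FPKM. Without Cd79b, the most abundant, whose groups overlapped, the sums were 3.798 and 4.52 against 25.7 and 76.7 FPKM. Of 10 stromal markers, 2 were above and none below, with sums of 9.58 and 8.89 against 10.2 and 7.07 FPKM. Most of each sum was Pdgfrb, at 8.56 and 7.78 against 8.44 and 5.57 FPKM. Erythroid markers, led by Hbb-bs, summed to 39.7 and 167 against 149 and 120 FPKM, with 4 of 10 above, 1 below and Car1 called higher by limma. Monocyte and macrophage markers summed to 418 and 710 against 413 and 447 FPKM, with 7 above and 2 below. Most of each sum was Ly6c2, at 281 and 545 against 229 and 269 FPKM. Of 10 c-Kit+ myeloid progenitor markers, led by Ctsg, 2 were above and 5 below, with sums of 5224 and 5848 against 3783 and 4576 FPKM. By limma-voom, 2 of 5 tested stem cell, 4 of 11 megakaryocyte and platelet and 4 of 10 B lymphoid markers were called higher. So were 3 of 10 erythroid and 2 of 10 monocyte and macrophage markers, but none of 6 stromal and 10 myeloid progenitor markers. Of the defining endothelial markers 1 of 7 was, and 3.67% of all genes tested that way. The part of these cell types in the levels of the 10 genes was not tested.

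The genes with the pattern most like that of each gene above the filter were found by the Euclidean distance of centred log2(FPKM + 1) over the 4 libraries, which all share the same 2 groups. For Pecam1 they were Itgb2l (distance 0.0831), Slc15a2 and Zfp783. For Cav2 they were Cd200r1 (0.0493), Plau and Gdf3. Plau, which encodes urokinase, was at 0.702 and 0.860 FPKM in controls and at 2.77 and 2.83 FPKM in SUV-OE, beside Cav2 in level too. For Cd34 they were Ccr1 (0.0258), Gm20559 and E230032D23Rik, and for Eng they were Bin2 (0.0408), Dgkh and Irf2.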

How the data were processed

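The authors prepared TruSeq v2 libraries from total RNA, sequenced them as paired ends and aligned the reads with TopHat2 to mouse build mm10. The table that the authors deposited gives 1 FPKM per gene in each library, and their methods name Cufflinks for it. The annotation release is not given in the sources used here. At GENCODE M21 exon lengths, 78.5% of genes had FPKM values that were whole reads in all 4 libraries within 0.01 reads, and 114 genes had no annotation. Ratios of these reads, each relative to the total by which the authors scaled that library, were given exact 95% intervals (scipy 1.17.1).

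FPKM values were compared with limma 3.58.1 (R 4.3.3) on log2(FPKM + 1), which understates the change of low genes, with an intensity trend, for genes with a mean of at least 0.5 FPKM. Benjamini-Hochberg adjustment was over all 13736 tested genes. The alternatives were pseudocount 0.1, no filter, a mean of at least 1 FPKM, quantile and median-of-ratios scaling, no trend, limma-voom on the reads of genes with at least 10 on average, and leaving out each library. The fits and the read recovery were tested on simulated data.

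The 10 genes and all lists were chosen with earlier results of these data known. The genes named were the 10 genes, called list genes, list genes with separate groups and a log2 fold change of at least 1, the most abundant tested gene of each list, neighbours of Cav1 and Cav2, endothelial markers, the 3 genes most alike in pattern, Suv39h1 and Kit. Not every gene under this rule is reported. The read range of 15 to 100 was set after the values were seen.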

Additional observations from a re-analysis of the deposited data

How the results depend on the processing

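Among all genes, the 112 higher and 56 lower calls became 74 higher with a pseudocount of 0.1, 525 higher and 159 lower with limma-voom on the reads, and 0 and 0 without the filter on low values, where 4177 genes had an unadjusted p under 0.05. Of the 10 described genes, 1 was called higher, 2 without the variance trend, 2 with limma-voom and 0 without the filter. Of the list genes, 4 were called higher, 11 with limma-voom and 0 without the filter. Leaving out any 1 library left 0 to 0 calls in each of these counts by limma, with 1146 to 3895 genes at an unadjusted p under 0.05. Such a fit has a lone library in 1 group, which is assumed to vary like the others, and its calls say nothing about stability. Of 57 fold changes of the 10 genes under these alternatives, 49 moved by less than 1 SD between replicates and 56 kept their sign, the other being Cd34 without control replicate 3 (-0.13). Changing the filter or dropping the trend cannot alter a fold change, so these counts say little about stability. With limma-voom, Cav1 went from 0.15 to 1.06, Kdr from 0.15 to 1.85 and Tek from 0.20 to 3.11. Cdh5 went from 0.24 to 0.75, Esam from 0.43 to 2.08 and Cav2 from 1.08 to 1.83. Eng, Pecam1 and Cd34 stayed within 1 SD, and Emcn was not fitted. The cause of these differences was not tested. No paired analysis was possible because 3 was the sole replicate number present in both groups. Depth limits Cav1, Kdr, Tek, Esam and Emcn, each with at most 67 reads in all.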
